A study of Mus musculus with 29 samples.

Results

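The 9 genes described here encode the transducins of rods and cones and the complex that switches them off. They were taken by name from a table of 24062 genes, and all 9 were present and passed the filter on low counts. The set holds the rod-type and cone-type alpha subunits (Gnat1 and Gnat2), beta subunits (Gnb1 and Gnb3) and gamma subunits (Gngt1 and Gngt2), together with Rgs9 and its partners Gnb5 and Rgs9bp. Expression was measured in 15 RNA-seq libraries from 5 sorted mouse populations with 3 libraries each, and chromatin accessibility in 12 ATAC-seq libraries from 6 populations with 2 libraries each. Bipolar cells were sorted at postnatal day 42 to 48 from Otx2-GFP+/- mice, in which GFP is inserted at the Otx2 locus, so that every bipolar sample carried 1 modified Otx2 allele. The population of all bipolar cells (pan-BC) was sorted by GFP, and for ATAC-seq its labels also list the Grm6-YFP+/+ transgene. ON bipolar cells (ON-BC) and OFF bipolar cells (OFF-BC) came from Otx2-GFP+/-; Grm6-YFP+/+ mice, in which the Grm6 promoter controls YFP, and OFF-BC were sorted a second time. The photoreceptor libraries, from mice at postnatal day 56, had been made by the same laboratory for a previous study. Rods carried Nrl-eGFP, blue cones were photoreceptors of Nrl-eGFP; NrlKO mice (a surrogate for cones expressing the blue opsin), and green cones, which were used for ATAC-seq only, carried Opn1mw-GFP. Cell class, study and age therefore changed together between bipolar cells and photoreceptors and cannot be told apart.

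Transducin is the G protein that carries the light signal. Light-activated opsin makes the alpha subunit exchange GDP for GTP and leave the beta-gamma pair, and the free alpha subunit then activates the PDE6 phosphodiesterase. The signal ends when the alpha subunit hydrolyses its GTP, a step sped up by the GTPase-activating protein RGS9, which is held stable by the beta-like subunit Gnb5 and anchored to membranes by Rgs9bp. ON bipolar cells run a different G protein cascade, in which the glutamate receptor mGluR6 (Grm6) acts through Go (alpha subunit Gnao1, with Gnb3 and Gng13) and is switched off by Rgs7 and Rgs11, again together with Gnb5.

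Sequences are shown for the promoters of the 5 members listed in the RefSeq promoter table (GRCm38.p6), because their accessibility is described for each population further on. Each is the 250 bases before the annotated start site, read 5′ to 3′ on the strand of the gene, and none of the 5 windows overlaps an exon. They lie at chr3:108092816-108093065 (Gnat2, plus strand), chr4:155491111-155491360 (Gnb1, plus strand), chr6:3993758-3994007 (Gngt1, plus strand), chr11:109298182-109298431 (Rgs9, minus strand) and chr9:75306038-75306287 (the long form of Gnb5, plus strand). The other 2 sequences are ATAC-seq regions of 201 bases inside introns, chosen because they were accessible in very different populations: chr4:155522428-155522628 in Gnb1 (plus strand) and chr11:109264175-109264375 in Rgs9 (minus strand, chosen after its values were seen). Capitals mark TAATCC, the core motif of the homeodomain factors Crx and Otx2, on either strand (GGATTA on the other). The homeodomain motif TAATTA was searched for as well, and none of the 7 sequences held it.
Gnat2 promoter: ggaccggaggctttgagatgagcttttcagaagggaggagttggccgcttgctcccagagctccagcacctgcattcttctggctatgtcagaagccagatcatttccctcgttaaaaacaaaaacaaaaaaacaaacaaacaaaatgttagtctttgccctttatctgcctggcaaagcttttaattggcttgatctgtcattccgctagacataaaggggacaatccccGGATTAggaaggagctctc
Gnb1 promoter: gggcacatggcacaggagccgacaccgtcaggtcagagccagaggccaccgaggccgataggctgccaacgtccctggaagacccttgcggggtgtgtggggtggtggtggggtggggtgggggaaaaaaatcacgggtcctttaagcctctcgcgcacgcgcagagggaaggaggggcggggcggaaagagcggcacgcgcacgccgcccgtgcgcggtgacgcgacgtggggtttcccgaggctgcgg
Gngt1 promoter: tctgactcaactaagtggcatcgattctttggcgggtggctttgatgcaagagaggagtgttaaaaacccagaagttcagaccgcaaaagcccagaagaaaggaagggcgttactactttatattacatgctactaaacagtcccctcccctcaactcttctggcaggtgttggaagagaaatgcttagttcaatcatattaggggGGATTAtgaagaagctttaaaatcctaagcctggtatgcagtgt
Rgs9 promoter: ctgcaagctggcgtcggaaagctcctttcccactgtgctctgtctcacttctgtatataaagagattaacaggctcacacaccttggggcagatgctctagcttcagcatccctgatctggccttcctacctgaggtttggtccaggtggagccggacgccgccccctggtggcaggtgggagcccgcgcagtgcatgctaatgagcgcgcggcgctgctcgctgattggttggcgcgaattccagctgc
Gnb5 promoter: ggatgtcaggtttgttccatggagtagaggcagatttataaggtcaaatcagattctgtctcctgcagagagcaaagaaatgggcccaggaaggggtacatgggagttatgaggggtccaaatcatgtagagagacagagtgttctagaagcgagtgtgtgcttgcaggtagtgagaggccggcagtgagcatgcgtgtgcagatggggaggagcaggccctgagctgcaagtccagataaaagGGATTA
Gnb1 intron region: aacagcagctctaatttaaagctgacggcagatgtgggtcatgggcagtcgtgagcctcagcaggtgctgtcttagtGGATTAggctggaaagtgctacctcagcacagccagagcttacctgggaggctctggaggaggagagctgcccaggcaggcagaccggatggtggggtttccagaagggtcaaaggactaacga
Rgs9 intron region: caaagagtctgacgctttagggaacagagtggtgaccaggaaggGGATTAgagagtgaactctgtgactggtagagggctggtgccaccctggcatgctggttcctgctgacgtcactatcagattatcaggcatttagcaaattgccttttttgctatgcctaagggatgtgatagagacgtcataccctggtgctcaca
TAATCC occurs once each upstream of Gnat2 (first base at -19 from the start site), Gngt1 (-44) and the long form of Gnb5 (-6), once in each of the intronic regions, and not in the windows upstream of Gnb1 and Rgs9. Of 32851 RefSeq promoters, 6.25% held TAATCC in the same 250 bases, 4.84% held TAATTA and 66.2% held CANNTG, the E-box motif, which occurred 4 times upstream of Rgs9. Over the 54 ATAC-seq regions whose nearest start site belonged to a member, 18 (33.3%) held TAATCC, against 21.8% of all 110715 regions. TAATTA was in 3.70% of the members' regions against 5.22% of all, and CANNTG in 66.7% against 68.9%. These matches are descriptions of the letters and not of binding.

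RNA-seq libraries held 12329548 to 26266746 counted reads, and values are normalized read counts, that is, reads divided by a size factor for each library. The sorted populations carried the markers of their labels, although not every marker was confined to them. Grm6, the ON bipolar receptor, was at 13260 to 13835 in ON-BC and 64.9 to 593 in OFF-BC, while Grik1, a kainate receptor subunit of OFF bipolar cells, was at 28558 to 50164 in OFF-BC and 382 to 568 in ON-BC. Summed levels of 10 bipolar markers were 118816 to 166458 in bipolar libraries, 32867 to 38071 in blue cones and 8272 to 9265 in rods. Among them Cabp5 alone was at 25242 to 29460 in blue cones. Vsx1 was at 847 to 1049 in ON-BC and 175 to 351 in OFF-BC. The 10 rod markers summed to 220399 to 313193 in blue cones and 1560544 to 2116637 in rods. The third OFF-BC library stood apart: its 8 cone markers summed to 73345 against 8211 and 9198 in the other OFF-BC libraries, and its 10 rod markers to 23908 against 5546 and 5196. It also held more RNA of the ON bipolar markers Grm6 (593 against 145 and 64.9) and Isl1 (1329 against 343 and 162). Differences of the members' RNA between ON-BC and OFF-BC are therefore given with and without this library, and those of other genes where it changes them. Fewer cells of a type and less RNA per cell cannot be told apart in these bulk samples.

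**Figure D1:**
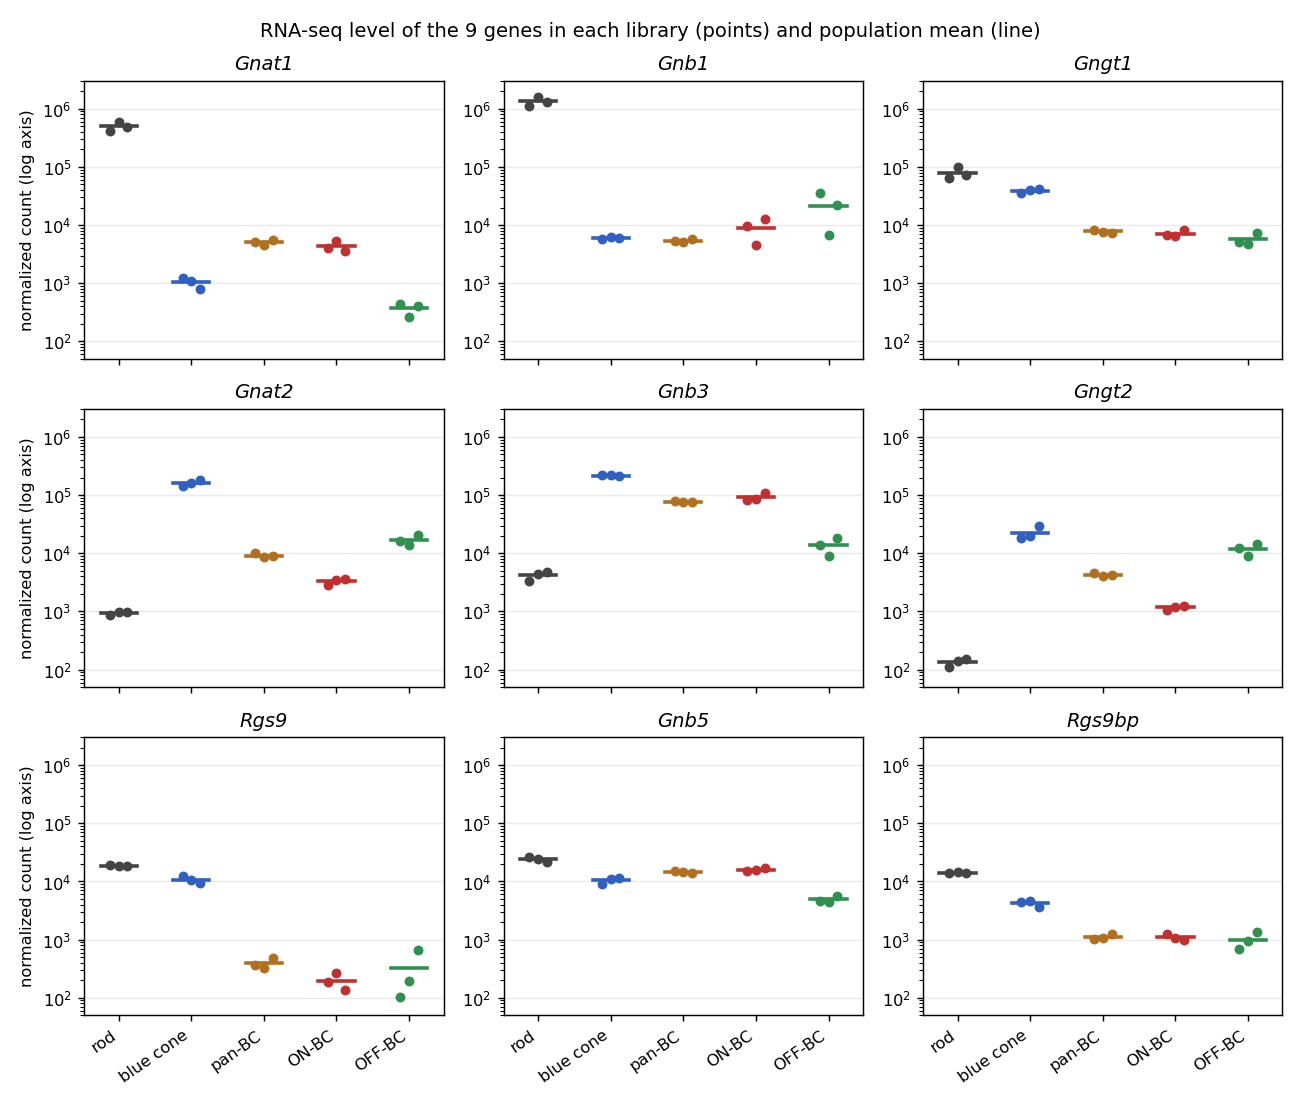
Normalized read count (log axis) of each of the 9 genes in the 3 libraries of each population (points), with population means (lines). Gnat1 and Gnb1 stand highest in rods, Gnat2, Gnb3 and Gngt2 in blue cones, and the 3 OFF-BC points of Gnb1 spread from 6741 to 35874.

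The rod alpha subunit Gnat1 (chr9:107674437-107679634, minus strand) was at 419655, 588373 and 488129 in rods. It was at 1233, 1109 and 785 in blue cones, at 5177, 4566 and 5496 in pan-BC, at 4089, 5244 and 3613 in ON-BC, and at 443, 268 and 414 in OFF-BC. The rod values lay far above all others, pan-BC and ON-BC overlapped, and OFF-BC lay below blue cones without overlap. Gnat1 was 482-fold higher in rods than in blue cones (log2 8.91 ± 0.20 SE, adjusted p = 6.9e-15, limma). It was 97.5-fold lower in pan-BC than in rods (adjusted p = 2.32e-13) but 4.94-fold higher in pan-BC than in blue cones (adjusted p = 2.27e-05), and 11.6-fold higher in ON-BC than in OFF-BC (adjusted p = 1.3e-07). Without the third OFF-BC library the log2 difference between ON-BC and OFF-BC was 3.63 in place of 3.54.

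The cone alpha subunit Gnat2 (chr3:108093066-108101430, plus strand) ran in the reverse order. It was at 143488, 161909 and 184502 in blue cones and at 878, 967 and 966 in rods. In bipolar cells it was at 16557, 13813 and 21002 in OFF-BC, at 10027, 8547 and 8861 in pan-BC, and at 2794, 3446 and 3631 in ON-BC. No neighbouring populations in this order overlapped. Gnat2 was 173-fold higher in blue cones than in rods (log2 -7.44 ± 0.15 SE for rods over blue cones, adjusted p = 3.07e-15, limma) and 9.74-fold higher in pan-BC than in rods (adjusted p = 4.68e-10). It was 17.8-fold lower in pan-BC than in blue cones (adjusted p = 2.73e-11) and 5.16-fold higher in OFF-BC than in ON-BC (log2 -2.37 ± 0.15 SE for ON-BC over OFF-BC, adjusted p = 4.87e-06; -2.21 without the third OFF-BC library).

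The beta subunit Gnb1 (chr4:155491361-155559269, plus strand), used by rods and by many other cells, was the most abundant gene of rods per kb of exon among 22511 genes with a RefSeq length. Its rod values were 1129819, 1617963 and 1295170, which was 6.13% to 7.57% of all counted reads. Blue cones held 5836, 6332 and 5889, and pan-BC 5368, 5088 and 5775. ON-BC held 9519, 4577 and 12913, and OFF-BC 35874, 6741 and 22406. The sorted ON-BC and OFF-BC libraries thus varied widely among themselves, with 2.82-fold and 5.32-fold between the highest and the lowest, and the 2 populations overlapped. Gnb1 was 222-fold higher in rods than in blue cones (log2 7.79 ± 0.44 SE, adjusted p = 1.21e-09, limma) and 247-fold lower in pan-BC than in rods (adjusted p = 2.52e-10). It was not called between pan-BC and blue cones (log2 -0.15 ± 0.44 SE, adjusted p = 1) or between ON-BC and OFF-BC (log2 -1.09 ± 0.44 SE, adjusted p = 1). The latter log2 difference was -0.91 without the third OFF-BC library.

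The ratio of Gnb1 to Gnat1 counts was steady in rods and moved in the other populations. It was 2.65 to 2.75 in the rod libraries, 1.04 to 1.11 in pan-BC and 4.73 to 7.50 in blue cones. In ON-BC it was 2.33, 0.873 and 3.57, and in OFF-BC 81.1, 25.2 and 54.1. The OFF-BC values lay above those of every other library, and the ON-BC values spanned those of rods and pan-BC.

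The cone beta subunit Gnb3 (chr6:124834240-124840275, minus strand), which also serves the mGluR6 cascade, was at 218447, 218350 and 209507 in blue cones. It was at 83169, 86838 and 108739 in ON-BC, at 77742, 74982 and 76117 in pan-BC, at 14021, 8977 and 18240 in OFF-BC, and at 3341, 4433 and 4699 in rods. No neighbouring populations overlapped, and ON-BC and pan-BC came next after blue cones, at 43.1% and 35.4% of the blue cone mean. It was 52.3-fold higher in blue cones than in rods (log2 -5.71 ± 0.23 SE for rods over blue cones, adjusted p = 2.28e-11, limma) and 18.5-fold higher in pan-BC than in rods (adjusted p = 9.58e-10). It was 6.99-fold higher in ON-BC than in OFF-BC (log2 2.81 ± 0.23 SE, adjusted p = 1.77e-05; 3.04 without the third OFF-BC library). Between pan-BC and blue cones it was not called (log2 -1.50 ± 0.23 SE, adjusted p = 0.0580), although edgeR on the recovered reads called it (adjusted p = 0.00517). Per kb of exon Gnb3 held rank 3 among all genes in blue cones and rank 8 in both pan-BC and ON-BC.

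The rod gamma subunit Gngt1 (chr6:3994008-3997436, plus strand) was the least divided of the transducin genes between rods and blue cones. It was at 65570, 99135 and 73478 in rods and at 35836, 39579 and 41886 in blue cones. Pan-BC held 8365, 7586 and 7386, ON-BC 6727, 6508 and 8208, and OFF-BC 5175, 4717 and 7276. Rods and blue cones did not overlap but differed by a log2 value of 1.00 ± 0.18 SE, which was not called against a log2 change of 1 (adjusted p = 1, limma). Gngt1 was 10.1-fold lower in pan-BC than in rods (adjusted p = 2.77e-09) and 5.02-fold lower than in blue cones (adjusted p = 4.71e-06). The bipolar populations overlapped from pan-BC to ON-BC and from ON-BC to OFF-BC, with a log2 difference of 0.34 ± 0.18 SE between ON-BC and OFF-BC (adjusted p = 1; 0.53 without the third OFF-BC library).

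The cone gamma subunit Gngt2 (chr11:95842295-95845731, plus strand) was at 18242, 19599 and 29616 in blue cones and at 112, 140 and 155 in rods. In bipolar cells it was highest in OFF-BC, at 12305, 9131 and 14167, followed by pan-BC at 4558, 4098 and 4246 and ON-BC at 1049, 1209 and 1249. No neighbouring populations overlapped, and the OFF-BC mean was 52.8% of the blue cone mean. Gngt2 was 162-fold higher in blue cones than in rods (log2 -7.34 ± 0.18 SE for rods over blue cones, adjusted p = 2.46e-14, limma) and 31.8-fold higher in pan-BC than in rods (adjusted p = 3.05e-12). It was 5.11-fold lower in pan-BC than in blue cones (adjusted p = 4.3e-06) and higher in OFF-BC than in ON-BC (log2 -3.32 ± 0.18 SE for ON-BC over OFF-BC, adjusted p = 1.0e-07; -3.18 without the third OFF-BC library). Its exons share 132 of 850 bases with Abi3 on the opposite strand. The counting was not stated to use strand, so reads there cannot be told apart. Abi3 itself was at 1899 to 2586 in blue cones, 5.82 to 16.2 in rods and 4.81 to 148 in OFF-BC.

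Rgs9 (chr11:109225355-109298181, minus strand), the GTPase-activating brake itself, was a photoreceptor gene in these libraries. It was at 18924, 18360 and 18769 in rods and at 12246, 10642 and 9349 in blue cones. Bipolar libraries held 370, 329 and 488 in pan-BC, 187, 266 and 137 in ON-BC, and 103, 197 and 672 in OFF-BC. The bipolar populations overlapped, and the highest value was in the OFF-BC library that stood apart by its photoreceptor markers. Rgs9 was 47.8-fold lower in pan-BC than in rods (adjusted p = 4.24e-08, limma) and 27.3-fold lower than in blue cones (adjusted p = 7.81e-07). Rods and blue cones did not overlap, with a log2 difference of 0.81 ± 0.43 SE that was not called (adjusted p = 1). The log2 difference between ON-BC and OFF-BC was -0.33 ± 0.43 SE (adjusted p = 1) and turned to 0.41 without the third OFF-BC library (adjusted p = 1).

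Gnb5 (chr9:75306288-75345923, plus strand), the obligate partner of RGS9 and of its relatives RGS7 and RGS11, was the most evenly expressed member. It was at 26152, 24752 and 21975 in rods, at 15041, 15812 and 16812 in ON-BC, at 14929, 14367 and 13721 in pan-BC, at 9182, 11151 and 11685 in blue cones, and at 4619, 4469 and 5612 in OFF-BC. No neighbouring populations overlapped. It was not called between rods and blue cones (log2 1.19 ± 0.13 SE, adjusted p = 0.369, limma), between pan-BC and rods (-0.76 ± 0.13 SE, adjusted p = 1) or between pan-BC and blue cones (0.43 ± 0.13 SE, adjusted p = 1). Gnb5 was 3.26-fold higher in ON-BC than in OFF-BC (log2 1.70 ± 0.13 SE, adjusted p = 7.86e-04; 1.80 without the third OFF-BC library).

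Rgs9bp (chr7:35578993-35585582, minus strand), the membrane anchor of RGS9, was at 14032, 14288 and 13894 in rods and at 4464, 4529 and 3575 in blue cones. It was at 1033, 1087 and 1233 in pan-BC, at 1269, 1087 and 1002 in ON-BC, and at 694, 958 and 1351 in OFF-BC. The 3 bipolar populations overlapped, and all lay below blue cones. Rgs9bp was 3.38-fold higher in rods than in blue cones (log2 1.76 ± 0.18 SE, adjusted p = 0.00252, limma), the only member of the brake called between the 2 photoreceptors. It was 12.6-fold lower in pan-BC than in rods (adjusted p = 4.44e-10) and 3.73-fold lower than in blue cones (adjusted p = 2.39e-04). The log2 difference between ON-BC and OFF-BC was 0.21 ± 0.18 SE (adjusted p = 1; 0.45 without the third OFF-BC library).

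**Figure D2:**
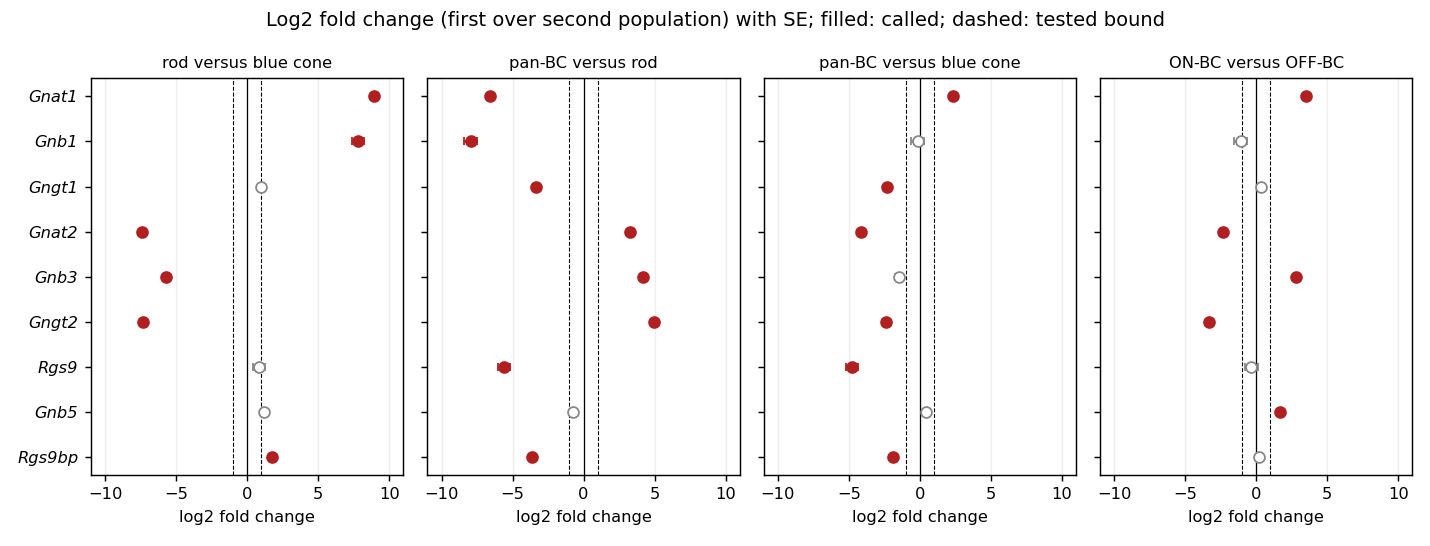
Log2 fold change of each member with its SE in the 4 RNA-seq comparisons, first population over second. Filled points were called by limma against a log2 change of 1 (dashed lines), as were 6, 8, 6 and 5 of the 9 genes from left to right.

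Counted over the set, 6 of 9 members were called between rods and blue cones, 3 higher in each, where 15.9% of the 14024 genes tested were called (4.63% higher in rods and 11.3% higher in blue cones). Gnat1, Gnb1 and Rgs9bp were the ones higher in rods and Gnat2, Gnb3 and Gngt2 those higher in blue cones. Between pan-BC and rods 8 of 9 were called, 3 higher in pan-BC (Gnat2, Gnb3 and Gngt2) and 5 higher in rods, with Gnb5 not called. The background there was 43.6% of genes (27.8% higher in pan-BC and 15.8% higher in rods, or 3901 and 2211 genes, which became 4497 and 1578 when libraries were scaled by their total). Between pan-BC and blue cones 6 of 9 were called, Gnat1 higher in pan-BC and Gnat2, Gngt1, Gngt2, Rgs9 and Rgs9bp higher in blue cones. The background was 36.3% (22.7% higher in pan-BC and 13.7% higher in blue cones, or 3177 and 1915 genes, and 3699 and 1462 with scaling by the total). The pan-BC libraries are shared by these 2 comparisons. When ON-BC were compared with OFF-BC, 5 of 9 were called, with Gnat1, Gnb3 and Gnb5 higher in ON-BC and Gnat2 and Gngt2 higher in OFF-BC, against a background of 6.55% (2.95% higher in ON-BC and 3.60% higher in OFF-BC). The count was 5 as well when any 1 ON-BC or OFF-BC library was left out.

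Scaling shifted all genes together in the comparisons across classes. The median log2 difference of all tested genes was 0.21 between pan-BC and rods and 0.16 between pan-BC and blue cones, and 0.55 and 0.44 with scaling by the total. No call of a member turned direction under these scalings. Gnb1 between pan-BC and blue cones, which was not called, moved from -0.15 to 0.13.

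For each subunit pair, RNA was compared as the share of the cone-type gene per kb of exon, without a test. For the alpha subunit, Gnat2 made up 0.245% ± 0.0299 (SD, n = 3) of the pair in rods and 99.5% ± 0.168 in blue cones. The share was 98.3% ± 0.311 in OFF-BC, 69.9% ± 2.07 in pan-BC and 49.7% ± 5.85 in ON-BC. OFF-BC libraries thus lay near blue cones on this measure, and ON-BC libraries between the photoreceptors. Gnat1 in bipolar libraries lay within the range of rod markers, as given further on. The part of photoreceptor RNA in the bipolar shares was not tested.

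For the beta subunit the order of the bipolar populations was the reverse. Gnb3 made up 55.8% ± 14.9 of the pair in OFF-BC, 94.7% ± 1.97 in ON-BC and 96.0% ± 0.234 in pan-BC, against 98.4% ± 0.0654 in blue cones and 0.526% ± 0.0779 in rods. The OFF-BC libraries were far apart, at 40.0%, 69.4% and 58.1%. For the gamma subunit, Gngt2 made up 70.2% ± 2.41 in OFF-BC, 39.1% ± 4.76 in blue cones and 38.6% ± 0.799 in pan-BC. It made up 15.8% ± 1.47 in ON-BC and 0.198% ± 0.0391 in rods. OFF-BC was the population with the highest Gngt2 share, above blue cones in every library. With the longest transcript as the length, the gamma shares were 77.7% in OFF-BC, 48.7% in blue cones, 48.2% in pan-BC and 21.7% in ON-BC, in the same order.

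**Figure D3:**
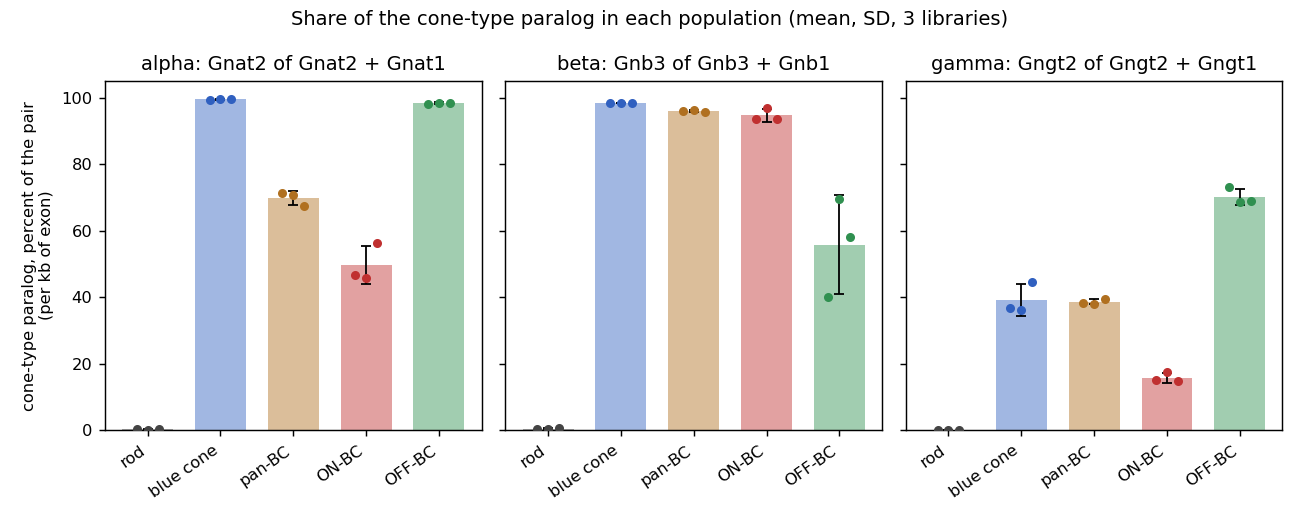
Share of the cone-type paralog in each subunit pair, in percent of the pair per kb of exon, with 3 libraries as points, the mean as a bar and the SD as the error bar. OFF-BC reach 98.3% for alpha and 70.2% for gamma but 55.8% for beta, where pan-BC and ON-BC lie at 96.0% and 94.7%. The part of photoreceptor RNA in the bipolar shares was not tested.

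Per kb of exon, the subunits were in different proportion in each population. The 2 alpha genes together were at 218595 ± 37127 (SD, n = 3) in rods, the 2 beta genes at 431031 ± 79236 and the 2 gamma genes at 82263 ± 18157. In blue cones the sums were 92456 ± 11474, 118618 ± 2817 and 66888 ± 10135. In ON-BC they were 3741 ± 447 for alpha, 53198 ± 8503 for beta and 8767 ± 1031 for gamma, so that beta stood far above both partners. In OFF-BC they were 9811 ± 2072, 14342 ± 6430 and 19880 ± 4286, with overlapping spreads for beta and gamma.

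Partners of Gnb3 and Gnb5 in the mGluR6 cascade were measured on the same scale. Per kb of exon, Gng13, the gamma subunit of that cascade, was at 87954 ± 3126 in ON-BC, 94179 ± 9357 in pan-BC and 25385 ± 4558 in OFF-BC, against 94.7 ± 41.1 in rods. Gnao1, its alpha subunit, was at 1892 ± 144 in ON-BC, 390 ± 77.0 in OFF-BC and 26.6 ± 1.95 in rods. Rgs11, a relative of Rgs9 that also pairs with Gnb5, was at 6923 ± 334 in ON-BC, 2655 ± 159 in OFF-BC and 29.2 ± 9.78 in rods. Rgs9 ran the other way, at 2190 ± 34.2 in rods, 1260 ± 170 in blue cones and 23.0 ± 7.57 in ON-BC.

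The lists of related genes give the setting of these changes, and their counts stand against the shares of all genes called, 15.9% for rods and blue cones, 43.6% for pan-BC and rods, 36.3% for pan-BC and blue cones and 6.55% for ON-BC and OFF-BC. Of 5 tested R7 RGS proteins and anchors other than the members, all 5 were higher in pan-BC than in either photoreceptor, rods or blue cones (median log2 7.58 and 4.98, beside 0.21 and 0.16 over all genes), 3 were higher in blue cones than in rods, and 1 was called between ON-BC and OFF-BC. That 1 was Gpr179, the ON bipolar anchor of RGS7 and RGS11, which was 14.6-fold higher in ON-BC (adjusted p = 6.83e-06, limma). Rgs7 was at 1111 to 1491 in pan-BC and at 0 to 4.85 in rods. Of 9 genes of the mGluR6 cascade, 8 were higher in pan-BC than in either photoreceptor and 1 was lower, the synaptic protein gene Lrit3. Between rods and blue cones 2 of them (Rgs7 and Rgs11) were called, both higher in blue cones, and 4 were higher in ON-BC than in OFF-BC, with Grm6 75.5-fold higher (limma), or 137-fold without the third OFF-BC library. The fit of ON-BC and OFF-BC alone with a replicate block called 7 of the 9, all higher in ON-BC. Their medians were 7.71 for pan-BC over rods and 2.29 for ON-BC over OFF-BC on the log2 scale, beside 0.21 and -0.02 over all genes.

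Among 12 tested alpha subunits other than the members, 2 were called between rods and blue cones (Gna13 higher in rods and Gnas higher in blue cones), a share near the 15.9% of all genes, and 5 were higher and 2 lower in pan-BC than in rods. Against blue cones 5 were higher and 1 lower in pan-BC. The gustatory alpha subunit gene Gnat3, close kin of the transducins, was at 887, 772 and 872 in pan-BC, at 559, 268 and 190 in ON-BC, at 2.24, 2.40 and 13.2 in OFF-BC, and at 0 to 1.02 in photoreceptors. The third OFF-BC library held the highest of the OFF-BC values. It and Gnao1 were the 2 called between ON-BC and OFF-BC, both higher in ON-BC, with Gnao1 4.91-fold higher (adjusted p = 4.87e-06, limma). Among 11 tested beta and gamma subunits, 4 were higher in blue cones than in rods and none was lower, against rods 8 were higher and 2 lower in pan-BC, and against blue cones 6 were higher and 2 lower. Gnb2 was 37.3-fold higher in blue cones than in rods (adjusted p = 1.25e-09, limma), and Gnb2 and Gng2 were the 2 called between ON-BC and OFF-BC, both higher in OFF-BC. The median for pan-BC over rods was 4.42 on the log2 scale for these beta and gamma subunits and 0.57 for the alpha subunits.

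Carriers of transducin and enzymes that attach its lipids were higher in photoreceptors where they were called. Of 8 tested, pan-BC held less than rods of 5 and more of none, and less than blue cones of 3 and more of none, the latter a share near the 36.3% of all genes. None was called between ON-BC and OFF-BC by limma, edgeR or DESeq2 (0 at an unadjusted p under 0.05). The median for pan-BC over rods was -1.68 on the log2 scale. Pdc, phosducin, which binds the transducin beta-gamma pair, was 44.5-fold lower in pan-BC than in rods (adjusted p = 2.32e-06, limma). Ric8b, a chaperone of alpha subunits, was the 1 called between rods and blue cones, 16.4-fold higher in rods (adjusted p = 1.65e-11, limma). Of the 22 other genes of rod and cone phototransduction, 8 were higher in rods and 8 higher in blue cones, against rods 14 were lower and 2 higher in pan-BC, and against blue cones 17 were lower and 3 higher (medians -4.31 and -3.48). Between ON-BC and OFF-BC 11 were called, 4 higher in ON-BC and 7 higher in OFF-BC, among them Cnga1 higher in ON-BC by 3.36 on the log2 scale and Opn1sw 15.6-fold higher in OFF-BC (adjusted p = 0.00332, limma). Without the third OFF-BC library Opn1sw was 6.68-fold higher in OFF-BC (adjusted p = 1.04e-04, limma), the split of the 11 genes called became 5 and 6, and the median of the list moved from -0.53 to 0.21 on the log2 scale. The fit of ON-BC and OFF-BC alone with a replicate block called 7 of the list, with a split of 5 and 2.

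Photoreceptor RNA in the bipolar libraries was set beside the members' own levels, in percent of the rod or blue cone mean. The median of 10 rod markers was 0.722% to 0.961% of rods in pan-BC, 0.678% to 0.944% in ON-BC and 0.0676% to 0.127% in OFF-BC, and all 10 were detected in each population. Gnat1 reached 1.02% ± 0.0948 of rods in pan-BC (SD, n = 3), with 0.865% ± 0.168 for ON-BC and 0.0751% ± 0.0188 for OFF-BC, which lies within the range of those markers. Gngt1, at 9.80%, 9.0% and 7.21% of rods, and Rgs9bp, at 7.94%, 7.96% and 7.11%, lay above the median of the markers in every bipolar library. Rgs9 was at 2.12%, 1.05% and 1.73%, and Gnb1 at 0.401%, 0.668% and 1.61%.

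The 8 cone markers had medians of 2.55% to 3.87% of blue cones in pan-BC and 0.125% to 0.248% in ON-BC. In OFF-BC the medians were 0.698%, 1.38% and, in the third library, 6.49%. Gnat2 was at 10.1%, 8.46% and 12.9% of blue cones in the OFF-BC libraries, with means of 5.60% for pan-BC and 2.01% for ON-BC. Gngt2 was at 54.7%, 40.6% and 63.0% in OFF-BC, above the highest cone marker in each of those libraries (8.05%, 6.90% and 17.4%). Gnb3 was at 35.4% in pan-BC and 43.1% in ON-BC, below Kcne2 (58.9% to 76.0%) but far above every other cone marker there. The next highest marker means were Pde6h at 4.93% of blue cones in pan-BC and Cngb3 at 2.25% in ON-BC. The part of photoreceptor RNA in the bipolar values of Gnat1, Rgs9 and Gnat2 was not tested.

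**Figure D4:**
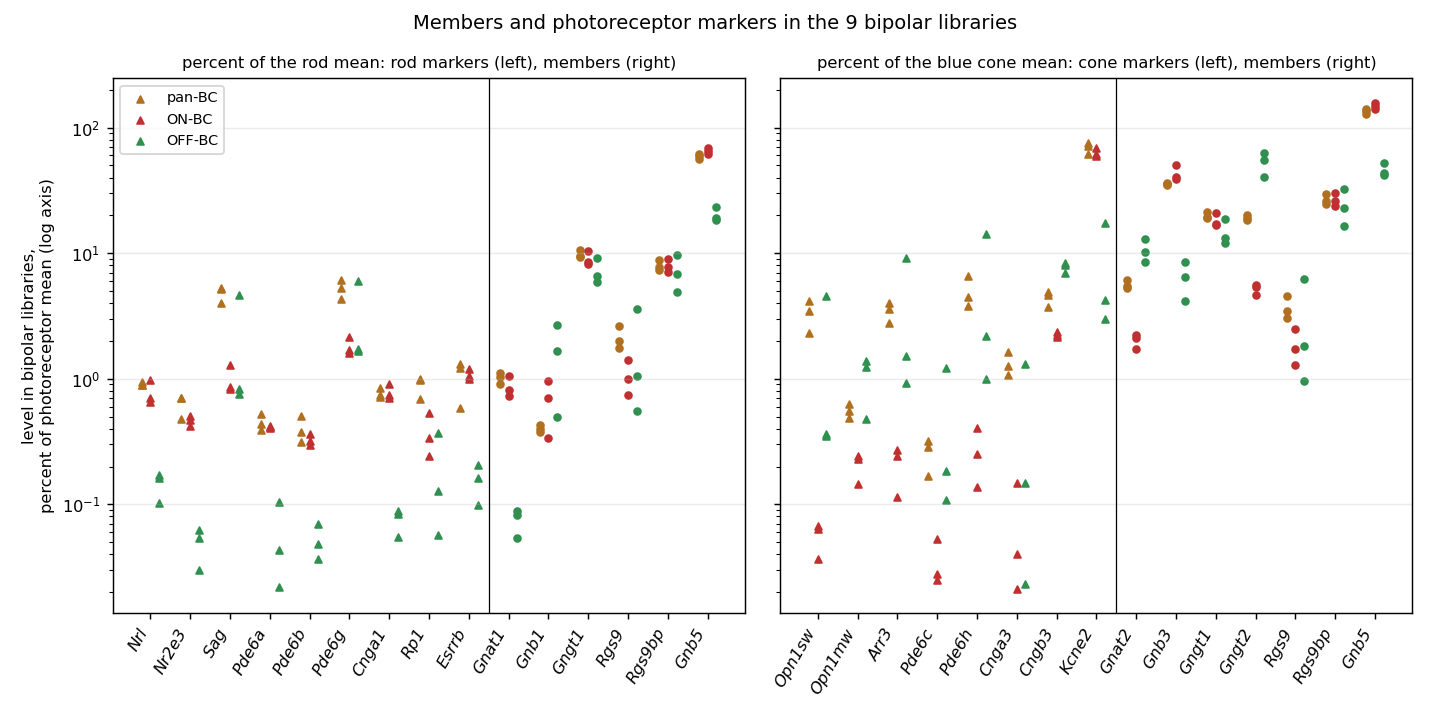
Level in each of the 9 bipolar libraries as percent (log axis) of the rod mean (left panel) or the blue cone mean (right panel), with photoreceptor markers as triangles (9 of the 10 for rods and all 8 for cones) and members as circles. Gnat1 sits among the rod markers in all 3 bipolar populations, while Gngt2 in OFF-BC sits at 40.6% to 63.0% of blue cones.

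Markers of other cells of the retina were summed as well. Summed levels of 8 Müller glia markers were 6527 to 12731 in bipolar libraries, 2110 to 3462 in rods and 13819 to 17193 in blue cones. Most of this was Clu, at 4889 to 10399 in bipolar libraries, 750 to 1424 in rods and 11761 to 14577 in blue cones. Rlbp1 was at 126 to 327 in blue cones and 212 to 356 in rods, and Apoe at 1176 to 2602 and 217 to 388. Over all populations the sums were 331 to 2449 for 6 amacrine markers, 7.76 to 119 for 4 horizontal cell markers, 32.0 to 342 for 5 ganglion cell markers, 7.45 to 238 for 4 microglia markers and 20.2 to 217 for 4 endothelial markers. At 0 in all libraries of a population were Gad2 and Thy1 in blue cones, Lhx1, Onecut1, Slc17a6 and Thy1 in rods, Slc17a6 and Cdh5 in OFF-BC, and Cldn5 in ON-BC.

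Chromatin accessibility was measured in 54 regions nearest to a member's start site among 110715 regions, and all 54 passed the filter. Of these, 14 lay in promoters, from 1000 bases upstream to 100 bases downstream of a start site. Mean accessibility was highest in rods at 31 regions, in blue cones at 15, in ON-BC at 5, in green cones at 2, in OFF-BC at 1 and in pan-BC at none. All 9 regions of Gnb1 were highest in rods and all 5 of Gnb3 in blue cones. Peaks called by the authors in 14 libraries, which include 2 of double-sorted green cones, covered 140 of 196 pairs of promoter region and library. Neither the population with the highest mean nor the share of pairs with a peak was counted over all regions.

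**Figure D5:**
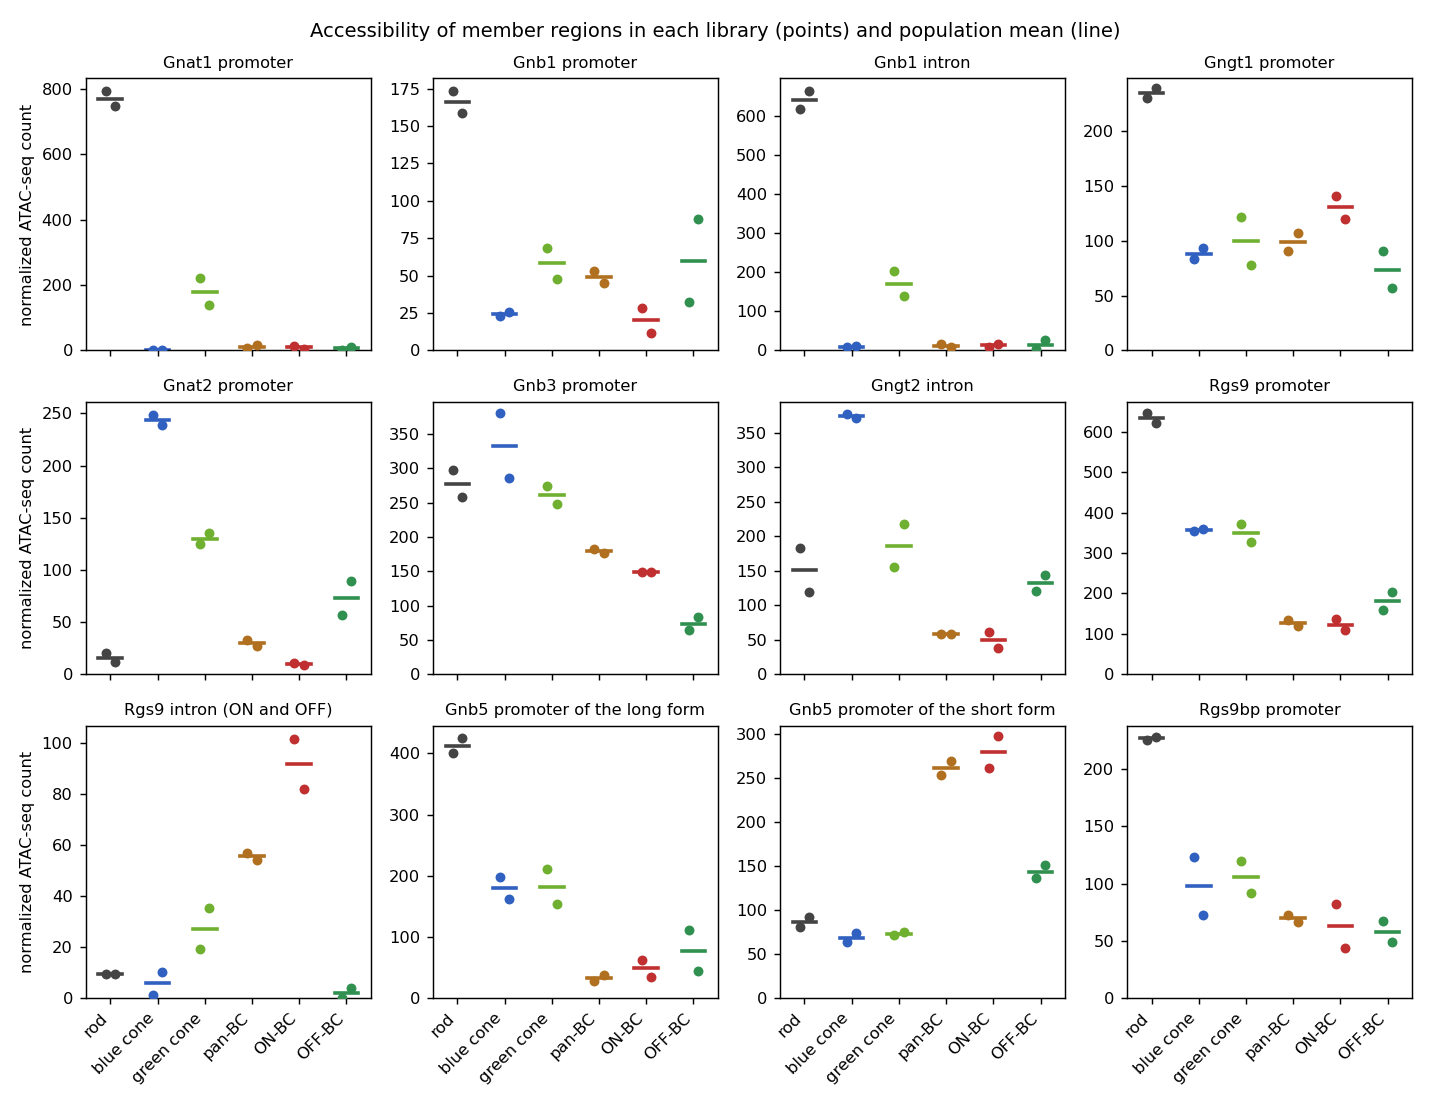
Normalized ATAC-seq count of 12 regions in the 2 libraries of each population (points), with means (lines). The Gnat1 promoter and the Gnb1 intron are accessible in rods and, at lower counts, in green cones, and the promoters of the long and short forms of Gnb5 run in opposite order between photoreceptors and bipolar cells.

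At the Gnat1 promoter (region centred at -75) rods held normalized counts of 792 and 748, green cones 222 and 138, and blue cones 2.6 and 1.4. Bipolar libraries held 7.2 and 15.4 in pan-BC, 14.9 and 5.9 in ON-BC, and 2.7 and 9.7 in OFF-BC. Only rods and green cones stood clear of the rest. The region was more accessible in rods than in blue cones (log2 8.02 ± 0.54 SE, adjusted p = 4.79e-08, limma) and more in green than in blue cones (log2 -5.89 ± 0.54 SE for blue over green, adjusted p = 5.40e-04). Both single-sorted green cone libraries had a peak there, and neither double-sorted one did. In the intronic region 1164 bases into Gnat1, rods held 593 and 598, blue cones 76.4 and 52.8 and the bipolar libraries 10.5 to 33.7, again more accessible in rods than in blue cones (adjusted p = 3.52e-04, limma).

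Gnat2, whose upstream window is printed above, had 2 promoter regions that differed. The one centred at -336 held 249 and 239 in blue cones, 124 and 135 in green cones, 20.2 and 11.5 in rods, 56.6 and 89.6 in OFF-BC, 32.8 and 26.8 in pan-BC, and 10.5 and 8.8 in ON-BC. It was more accessible in blue cones than in rods (log2 -3.91 ± 0.34 SE for rods over blue cones, adjusted p = 5.06e-06, limma) and in OFF-BC than in ON-BC (log2 -2.77 ± 0.34 SE for ON-BC over OFF-BC, adjusted p = 0.00188), the direction of its RNA in both comparisons. With ON-BC and OFF-BC fitted alone the latter was not called (adjusted p = 0.0602, limma). The one centred at -23, which like the other holds 1 TAATCC, held 51.4 and 58.3 in rods and 69.9 and 99.0 in blue cones and was not called between them (log2 -0.60 ± 0.38 SE, adjusted p = 1). A region 830 bases into Gnat2, outside the rule for named regions and picked after its values were seen, held 57.6 and 59.3 in pan-BC, 74.7 and 83.5 in ON-BC and 0 and 5.4 in rods.

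At Gnb1 the promoter region centred at -15 held 174 and 159 in rods, 68.4 and 47.9 in green cones, 23.3 and 26.0 in blue cones, and 11.7 to 87.6 in bipolar libraries. It was called between rods and blue cones (6.51-fold higher in rods, adjusted p = 0.00777, limma) and not between pan-BC and rods (-1.75 ± 0.43 SE, adjusted p = 0.0901). The intronic region 31167 bases into the gene, printed above, showed a wider gap, with 617 and 663 in rods, 203 and 138 in green cones, 7.8 and 10.1 in blue cones, and 2.7 to 27.3 in bipolar libraries. It was more accessible in rods than in blue cones (log2 6.02 ± 0.63 SE, adjusted p = 1.22e-05) and than in pan-BC (log2 -5.65 ± 0.63 SE for pan-BC over rods, adjusted p = 4.51e-06). Between blue and green cones it was not called (log2 -4.09 ± 0.63 SE, adjusted p = 0.0519).

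The promoters of Gnb3 and Gngt1 were open in every population. At Gnb3 the region centred at -32 held 297 and 258 in rods, where the RNA was lowest, 381 and 285 in blue cones, 183 and 177 in pan-BC, 149 and 149 in ON-BC, and 64.7 and 82.7 in OFF-BC. It was called in none of the 5 comparisons, and all 14 libraries had a peak there. The region 172 bases into Gnb3, in an exon, did separate the photoreceptors, with 298 and 259 in blue cones and 42.1 and 63.0 in rods (log2 -2.41 ± 0.24 SE for rods over blue cones, adjusted p = 2.92e-04, limma). It was also more accessible in pan-BC than in rods (log2 1.54 ± 0.24 SE, adjusted p = 0.0357). That call was lost with TMM scaling (adjusted p = 0.151, limma), edgeR (0.0607) and DESeq2 (0.104).

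At Gngt1 the promoter region, whose window holds TAATCC, reached 230 and 239 for rods, against 82.9 and 93.2 in blue cones and 56.5 to 140 in bipolar libraries, and no comparison called it (rods over blue cones log2 1.40 ± 0.26 SE, adjusted p = 0.351, limma). Gngt2 had no promoter region. Its intronic region at 449 bases held 377 and 371 in blue cones, 183 and 119 in rods, 121 and 144 in OFF-BC, 58.4 and 58.2 in pan-BC, and 61.2 and 38.1 in ON-BC. OFF-BC lay above the other bipolar populations without overlap, but the difference from ON-BC was not called (log2 -1.43 ± 0.26 SE, adjusted p = 0.346), and that between pan-BC and blue cones was (log2 -2.66 ± 0.26 SE, adjusted p = 5.65e-05).

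The promoter of Rgs9 held 646 and 622 in rods, 371 and 328 in green cones, 355 and 361 in blue cones, and 108 to 204 in bipolar libraries. All photoreceptor libraries lay above all bipolar ones, and all 14 libraries had a peak there. It was less accessible in pan-BC than in rods (log2 -2.31 ± 0.18 SE, adjusted p = 4.99e-06, limma) and than in blue cones (-1.49 ± 0.18 SE, adjusted p = 0.0221). One intronic region, 33906 bases into the gene and printed above, ran against the promoter. ON-BC held 102 and 82.0 there and pan-BC 56.8 and 54.2. Rods held 9.3 and 9.5, blue cones 1.3 and 10.1, and OFF-BC 0 and 3.9. It was called between ON-BC and OFF-BC (log2 5.38 ± 0.73 SE, adjusted p = 7.70e-04), where Rgs9 RNA was not.

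Gnb5 has 2 annotated promoters. RefSeq gives a long form of 395 residues, starting at the first promoter, which in background knowledge is the form that pairs with RGS9 in photoreceptors, and a short form of 353 residues, starting at the second and used more widely in neurons. The first promoter held 400 and 425 in rods, compared with 198 and 161 in blue cones, 28.0 and 37.6 in pan-BC, 62.7 and 35.1 in ON-BC, and 110 and 44.8 in OFF-BC. The second held 80.2 and 92.2 in rods, compared with 63.5 and 73.7 in blue cones, 253 and 270 in pan-BC, 261 and 297 in ON-BC, and 136 and 151 in OFF-BC. The orders were opposite without overlap between rods and any bipolar population.

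Against rods, the first Gnb5 promoter was less accessible in pan-BC (log2 -3.63 ± 0.35 SE, adjusted p = 3.30e-06, limma) and the second more (log2 1.59 ± 0.20 SE, adjusted p = 0.0108). The call of the second was lost with TMM scaling (adjusted p = 0.0737, limma). Against blue cones the values were -2.42 ± 0.35 SE (adjusted p = 0.00173) and 1.92 ± 0.20 SE (adjusted p = 9.10e-04). The first promoter made up 83.3% and 82.2% of the counts at both in rods, 75.7% and 68.6% in blue cones, 74.7% and 67.3% in green cones, 44.8% and 22.9% in OFF-BC, 19.4% and 10.6% in ON-BC, and 9.97% and 12.2% in pan-BC. RNA counts per gene do not separate the forms. The intronic region 2504 bases after the first promoter held 794 and 848 in rods, 136 and 99.3 in OFF-BC and 20.9 and 14.6 in ON-BC, and was more accessible in OFF-BC than in ON-BC (log2 -2.66 ± 0.23 SE for ON-BC over OFF-BC, adjusted p = 1.93e-04), while Gnb5 RNA was higher in ON-BC.

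The promoter of Rgs9bp held 225 and 228 in rods, against 123 and 72.3 in blue cones, and 43.9 to 82.1 in bipolar libraries. It was less accessible in pan-BC than in rods (log2 -1.69 ± 0.31 SE, adjusted p = 0.0393, limma) and was not called between rods and blue cones (log2 1.26 ± 0.31 SE, adjusted p = 0.716). The call between pan-BC and rods was lost with scaling by the total (adjusted p = 0.0983, limma) and with DESeq2 (0.0650). The exonic region 1911 bases into the gene held 861 and 766 in rods and 337 and 236 in blue cones (log2 1.52 ± 0.21 SE, adjusted p = 0.0896).

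Over all 54 regions, 13 were called between rods and blue cones (10 higher in rods and 3 in blue cones), against 10% of all 108448 regions tested (1.46% higher in rods and 8.56% higher in blue cones). Fitting those 2 populations alone called none of the 54 and none of all regions, with 24 of the 54 at an unadjusted p under 0.05, while edgeR called 21. Between pan-BC and rods 28 were called, 3 higher in pan-BC and 25 in rods, against 51.6% of all regions (40.3% and 11.2%), where the median of all regions was 1.16 on the log2 scale. Between pan-BC and blue cones 15 were called (3 and 12) against a background of 35.9% (28.8% and 7.13%). Between ON-BC and OFF-BC 3 were called (1 and 2) against 7.39% (4.58% and 2.80%). Between blue and green cones 1 was called, the Gnat1 promoter, higher in green cones, against 0.0904% (0.0277% higher in blue and 0.0627% higher in green cones). Fitting those 2 populations alone called 0 of the 54 by limma, with 6 at an unadjusted p under 0.05, while edgeR called 3 and DESeq2 2 with all populations in the fit.

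The genes most like each member over the 15 RNA-seq libraries were found by Pearson's r of log2 values, as a description in which the 3 libraries of a population share its profile. Gnat1 was most like Cnga1 (r = 0.996) and Mef2c (0.995). Gnat2 was most like Cngb3 (0.994), Nrcam (0.987) and Cd37 (0.980), and Gngt2 like Fam19a3 (0.990), Nptx1 (0.983) and Pls3 (0.983). Cnga1 and Cngb3 encode channel subunits of rods and cones that open and close downstream of these alpha subunits.

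Gnb1 was most like Timm44 (0.989), Haus1 (0.979) and Zfp410 (0.970), none of them a phototransduction gene, and Gnb3 like Pacsin1 (0.979) and Nab1 (0.970). Gngt1 was most like Crx (0.994), the photoreceptor homeodomain factor, Mest (0.994) and Sec14l2 (0.992). In the brake, Rgs9 was most like Llgl2 (0.998), Casz1 (0.995) and Wdr17 (0.993), Rgs9bp like Tdrd7 (0.993), Pfkfb2 (0.992) and Map4k3 (0.992), and Gnb5 like Lims1 (0.969), Ivns1abp (0.936) and Dscaml1 (0.928). Ranking by Spearman's correlation kept 6 of the 27 genes found by Pearson's r.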

How the data were processed

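RNA-seq and ATAC-seq reads were processed by the authors. According to the submitters' processing notes the tools were STAR 2.7.0d, HTSeq 1.9, Bowtie2 2.2.5, SAMtools 1.3, Picard 2.19.0, MACS2 2.1.1, bedtools 2.24.0, featureCounts and HOMER 4.8, with the GRCm38 (mm10) build. The deposited signal values are counts that the authors divided by 1 size factor per library. The deposited peak lists hold for each peak the authors' fold enrichment, a score, and p and q values as −log10. The test the authors stated was DESeq2 against a log2 fold change of 1. They also filtered out genes that they attributed to low-level photoreceptor contamination, and no such filter was applied here. By the fold changes found here, Gnat1 lay beyond their bounds for pan-BC against blue cones. It was 482-fold higher in rods than in blue cones and 97.5-fold higher in rods than in pan-BC. For ON-BC against OFF-BC the authors likewise filtered genes far higher in a photoreceptor than in the enriched bipolar population. Gnat1, called higher in ON-BC here, was at 0.865% of the rod mean in ON-BC. Whether that filter removed Gnat1 was not checked.

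All values above 0 (230384 for genes and 1212862 for regions) were whole multiples of 1 read, within 0.01 of a read, so reads were recovered. Since the tables hold normalized values, limma 3.58.1 (treat, log2 change of 1, trend) was run on log2(value + 1), a scale that understates changes of low features, with 1 model per assay over all its populations. The filter was edgeR's filterByExpr on recovered reads (14024 of 24062 genes and 108448 of 110715 regions), and an adjusted p (Benjamini-Hochberg) below 0.05 was called. edgeR 4.0.16 and DESeq2 1.42.0 on recovered reads, other pseudocounts, scalings, filters and single libraries left out were alternatives. On simulated counts for rods against blue cones, limma called 98% of genes changed 4-fold and 100% of those changed 16-fold, and 28% and 100% of regions.

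RNA-seq libraries held 12329548 to 26266746 reads, and ATAC-seq libraries 4176776 to 12345845. P-values measure the spread between libraries. Members, gene lists and markers were chosen with earlier results of these data known. Named beyond the members were, for each member, the 3 genes with the highest Pearson correlation, from each list up to 2 called genes with the largest change in each direction, and each promoter region and the most accessible other region of a member. Gene lengths, coordinates and promoters came from RefSeq (GRCm38.p6). 2 genes that these rules named are not reported here. Promoter sequences of Gnat1, Gnb3, Gngt2 and Rgs9bp were not used here.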

Additional observations from a re-analysis of the deposited data

How the results depend on the processing

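For RNA-seq, 600 of 612 values of single members under the alternatives kept their direction and their side of the threshold, 9 passed it newly and 3 reversed, all of them differences that were not called: Gnb1 between pan-BC and blue cones (0.13 with scaling by the total), Rgs9 between ON-BC and OFF-BC (-0.94 to 0.41 with 1 library left out, the highest without the third OFF-BC library) and Rgs9bp there (-0.030 to 0.45, the lowest without the first OFF-BC library). Counts of members called stayed at 6, 8, 6 and 5 with any 1 library left out. Gnb3 between pan-BC and blue cones passed the threshold with TMM scaling (adjusted p = 0.0356, limma), edgeR (0.00517), DESeq2 (0.0336), those 2 populations alone (0.0259) and a test against no change (1.44e-05). For ATAC-seq, 485 of 540 values were kept and 55 lost their call. Member regions called with 1 library left out, where the lone library is assumed to vary like the others, were 9 to 11 for rods and blue cones, 1 for blue and green cones, 21 to 23 for pan-BC and rods, 12 to 13 for pan-BC and blue cones, and 3 to 4 for ON-BC and OFF-BC. A test against no change called 31, 7, 46, 29 and 19 in that order. Over all 108448 regions it called 37557, 4782, 79210, 66171 and 26416. For the first, second and last comparison edgeR called 21, 3 and 5, beside 19112, 915 and 12927 over all regions. Blue and green cones had 2 member regions with a pseudocount of 5 and 2 with DESeq2. With only the 2 populations compared, 0 were called for rods and blue cones and 0 for blue and green cones (24 and 6 at an unadjusted p under 0.05, limma). Same-numbered ON-BC and OFF-BC libraries share a postnatal day (43, 48 and 42 for RNA-seq, 42 and 46 for ATAC-seq), and the labels do not say whether they share animals (correlations of deviations -0.0763, 0.222 and -0.0649 for RNA-seq and 0.00017 for ATAC-seq). With a replicate block over all libraries, 919 genes were called between ON-BC and OFF-BC (split 415 and 504, against 414 and 505 without it), with 5 members and 3 member regions called as without it. Blue and green cones had 2 member regions with the block, and with 2 populations and the block 0 were called for rods and blue cones and 0 for blue and green cones. Over all regions, edgeR called 19112 in place of 10871 between rods and blue cones and 12927 in place of 8010 between ON-BC and OFF-BC, where DESeq2 called 4791 and those 2 populations alone 3894. Against no change limma called 8068, 11156, 10704 and 3783 genes in place of 2231, 6112, 5092 and 919. The split of ON-BC and OFF-BC regions, 4972 and 3038, became 3680 and 4056 with scaling by the total, 3712 and 3482 with TMM, and 7082 and 1971 with a pseudocount of 5. The cause of these changes was not tested. Regions within 20000 bases of a start site numbered 75 in place of 54. Of the 140 pairs of promoter region and library with a peak, 121 passed a −log10 q of 10, and neighbouring regions could share a peak. Settings added after seeing the data were the gene lists between ON-BC and OFF-BC without the third OFF-BC library, where every list had the same number of genes called as with it, and with the block in those 2 populations alone, where the cascade of mGluR6 had 7 in place of 4, R7 RGS proteins and anchors 2 in place of 1, and the rest of phototransduction 7 in place of 11.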
